A study of Mus musculus with 8 samples.

Results

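The genes of the mitochondrial respiratory chain were followed through 4 peak lists from D1 cells, a long-term dendritic cell line from the spleen of C57BL/6 mice. Members were taken by symbol from the protein-coding genes of the mm9 annotation: every gene whose symbol starts with Nduf, Uqcr, Atp5 or Cox4 to Cox8, together with Sdha, Sdhb, Sdhc and Sdhd. The rule gave 92 gene entries of 22380 protein-coding genes. The 92 entries carry 91 symbols, because Ndufb8 has 2 gene identifiers that share 1 peak. H3K4me3, the trimethylation of lysine 4 of histone H3, was profiled in non-treated cells (NT), in cells given 10 μg/ml curdlan for 2 h (curdlan), and in cells given curdlan for 2 h together with FK506 (curdlan+FK506), whose dose the labels do not give. Curdlan is a beta-glucan that stimulates dectin-1, and FK506 inhibits calcineurin, the phosphatase that activates NFAT factors. The fourth list holds NFATc2 binding 30 min after 10 μg/ml curdlan, read with an antibody to V5 in D1 cells that stably carry a V5-tagged NFATc2 transgene, so that the introduced protein and not the endogenous one was measured. No group was a primary dendritic cell, and 1 ChIP library with its input stands for each condition.

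The respiratory chain passes electrons from NADH and succinate to oxygen and pumps protons across the inner mitochondrial membrane. Complex I (Nduf genes) oxidises NADH, complex II (Sdh genes) oxidises succinate as a step of the TCA cycle, complex III (Uqcr genes) passes electrons from ubiquinol to cytochrome c, and complex IV (Cox genes) reduces oxygen. The ATP synthase (Atp5 genes) lets the protons back and makes ATP. Most subunits are encoded in the nucleus and are needed in nearly every cell, but some complex IV subunits exist as paired isoforms, of which one is widely expressed and the other restricted to muscle, lung or testis. H3K4me3 marks the start sites of genes that are transcribed or poised, and in activated dendritic cells the balance between glycolysis and respiration is known to move.

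By role, 39 entries were complex I subunits, 4 were complex I assembly factors (Ndufaf1 to Ndufaf4), 4 were complex II, 8 complex III, 18 complex IV and 15 ATP synthase subunits. A further 2 (Atp5s, Atp5sl) carry an ATP synthase symbol without being subunits. The last 2 entries fall under the rule by symbol alone: Cox4nb, the neighbour of Cox4i1, which is not a respiratory subunit, and Atp5l-ps1, a sequence named as a pseudogene that the annotation lists as protein-coding. Ndufa4 was kept with complex I, as its symbol says, although its protein has since been found with complex IV.

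The ChIP libraries held 16662316 (NT), 21289349 (curdlan), 19468498 (curdlan+FK506) and 14377535 (NFATc2) mapped tags. Levels are given below as RPM, the tags of a gene's peaks per 1000000 ChIP tags. The peaks of the H3K4me3 lists took 57.9%, 52.8% and 51.3% of their tags, and those of NFATc2 took 5.58%. Of the dendritic and myeloid markers, 11 of the 12 found by symbol had an H3K4me3 peak in every list, with Flt3 the one without. T cell markers had a peak at 1 of 5 genes (Lck), and B cell, fibroblast and muscle markers at 0 of 4 each.

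Promoters of respiratory genes are known targets of NRF1, of the ETS factor GABPA and of YY1. The sequences shown first are member promoters with a high NT level among those that hold the core motif of each of these factors within 250 bases before and 50 bases after the main transcription start site (TSS). All are mm9, 5′ to 3′ on the strand of the gene, with the motif in capitals. Where an annotated exon of the gene or of its neighbour covers the motif, 30 bases are shown. The Cox6a1 stretch is chr5:115799080-115799169 on the minus strand, with the NRF1 motif starting 139 bases upstream of the TSS. The Ndufa11 stretch is chr17:56857123-56857174 on the plus strand, with the NRF1 motif starting 60 bases upstream. The Uqcrh stretch is chr4:115747677-115747726 on the minus strand and the Ndufs1 stretch is chr1:63223395-63223424 on the minus strand, with ETS motifs starting 10 and 17 bases upstream. The Atp5h stretch is chr11:115281469-115281498 on the minus strand, with the YY1 motif starting 211 bases upstream. This YY1 match lies in an annotated exon, past the TSS of the divergent neighbour Kctd2, which is 164 bases upstream of the Atp5h TSS. The Ndufs1 match also lies in an annotated exon, past the TSS of its divergent neighbour Eef1b2, 3 bases upstream.
Cox6a1, NRF1: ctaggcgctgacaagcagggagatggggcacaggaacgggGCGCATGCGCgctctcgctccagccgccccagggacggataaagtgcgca
Ndufa11, NRF1: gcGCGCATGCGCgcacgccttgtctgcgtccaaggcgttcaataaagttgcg
Uqcrh, ETS: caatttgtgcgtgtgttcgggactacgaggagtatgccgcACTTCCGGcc
Ndufs1, ETS: aggcctcggctACTTCCGGcggaactgcag
Atp5h, YY1: agctgcagctcCGCCATCTTgggccgccgc

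The NRF1 core motif, whose letters are the capitals in the Cox6a1 stretch, was searched on both strands and lay in 6 of the 92 member windows (6.52%): Atp5g2, Atp5k, Cox6a1, Ndufa11, Ndufaf4 and Uqcrc1. It lay in 1.19% of the windows of all protein-coding genes and in 2.17% of those with an NT peak. The ETS motif CCGGAAGT was in 6 windows (6.52%), those of Atp5h, Cox8a, Ndufs1, Uqcr11, Uqcrh and Uqcrq, against 4.91% of all genes and 9.23% of genes with an NT peak. The YY1 motif AAGATGGCG was in 6 windows (6.52%), among them those of Atp5h, Atp5sl, Ndufa2, Ndufa9 and Ndufs4, against 1.90% and 3.50%. The Atp5h window held both the ETS and the YY1 motif, with the YY1 match past the TSS of its neighbour Kctd2. The Sp1 motif GGGGCGGGG was in 15 windows (16.3%, against 15.2% and 23.0%), and the NFAT core GGAAAA was in 22 (23.9%, against 23.4% and 21.0%). The GC content had a median of 56.0% in member windows (56.2% in those with an NT peak), 55.7% in all genes and 61.0% in genes with an NT peak. The observed over expected ratio of CpG was 0.784 in member windows (0.83 in those with an NT peak), 0.550 in all genes and 0.783 in genes with an NT peak. The ETS and NFAT motifs share the letters GGAA, but neither contains the other, and a match describes the sequence only.

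Many of these promoters face another gene. A protein-coding gene on the opposite strand started within 1 kb of the main TSS at 27 of the 92 entries (29.3%). Over all protein-coding genes the share was 9.25%. Of the entries with an NT peak it was 27 of 84 (32.1%), against 17.2% of all genes with one. Among the partners were Timm8b (paired with Sdhd), which takes part in mitochondrial protein import, Mrpl47 (with Ndufb5), a protein of the mitochondrial ribosome, Rps28 (with Ndufa7), a cytosolic ribosomal protein, and Eef1b2 (with Ndufs1), a translation elongation factor. The NT peak of 35 of 84 entries reached the TSS of another protein-coding gene (41.7%, against 25.9% of all genes with an NT peak). The tags of such a peak cannot be divided between the neighbours. Atp5j shared its NT peaks with Gabpa, the gene of the ETS factor named above. Cox4i1 and Cox4nb, both members, are each other's partner and share 1 NT peak. The counts of 27 and 35 therefore include this pair at both entries.

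H3K4me3 at respiratory chain genes was present or absent in the same way in all 3 libraries. A peak within 1 kb of a TSS was found at 84 of the 92 entries in each list (91.3%, exact 95% interval 83.6% to 96.2%), and 8 entries had none in any list. Over all protein-coding genes, 48.9% had a peak in NT, and 338 genes (1.51%) had a peak in only 1 or 2 of the 3 lists. No member was among these, which says little about 92 entries where the share over all genes is so small. Every entry of complex II, complex III, the ATP synthase and the assembly factors had a peak. Complex I had a peak at 38 of 39 entries and complex IV at 12 of 18. Intervals of this kind cover counting error only.

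The 8 entries without a peak were Atp5l-ps1 and 7 isoforms or paralogs known to be restricted to particular tissues or states. Cox4i2 is the lung isoform of subunit IV, Cox6a2 and Cox8b are the heart and skeletal muscle isoforms of subunits VIa and VIII, and Cox6b2, Cox7b2 and Cox8c are testis isoforms. Ndufa4l2 is the paralog of Ndufa4 that is known to be induced in hypoxia. Ndufa4l2 lay nearest to a peak, with gaps of 1362 bp (NT), 1235 bp (curdlan) and 1496 bp (curdlan+FK506), just outside the limit of 1 kb. The next were Cox4i2 and Cox6b2, both with a gap of 11.1 kb in NT, followed by Cox8b (16.7 kb), Cox8c (19.7 kb) and Cox6a2 (30.2 kb). Cox7b2 was 612 kb from the nearest NT peak. The farthest member inside the limit was the second Ndufb8 entry, whose TSS lay 0.664 kb from the NT peak of the first. The smallest peak in the NT list held 18 tags (1.08 RPM), so a weaker signal at these starts would not have been listed.

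The widely expressed partners of those isoforms all had peaks. In the order NT, curdlan and curdlan+FK506, Cox4i1 had 920, 1228 and 1089 tags, Cox6a1 had 1554, 1798 and 1716, and Cox6b1 had 606, 817 and 742. Cox7b had 511, 670 and 558 tags, Cox8a had 1182, 1287 and 1122, and Ndufa4 had 849, 999 and 897. In each of these pairs the restricted isoform had no peak in any of the 3 libraries. The pair of Cox7a2 and Cox7a1 was the one in which both had a peak. Cox7a2, the widely expressed isoform of subunit VIIa, had 820, 958 and 883 tags, which is 18.8, 16.2 and 15.9 RPM per kb of peak. Cox7a1, the heart and skeletal muscle isoform, had 136, 128 and 101 tags, or 5.39, 4.09 and 3.38 RPM per kb. The exact 95% counting intervals of the Cox7a1 level, 6.85 to 9.65 RPM in NT, 5.02 to 7.15 in curdlan and 4.23 to 6.30 in curdlan+FK506, lay below those of Cox7a2 in every library. Cox4i1 shares its peak with Cox4nb, whose TSS lies 0.178 kb away, and the level cannot be assigned to either.

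**Figure D1:**
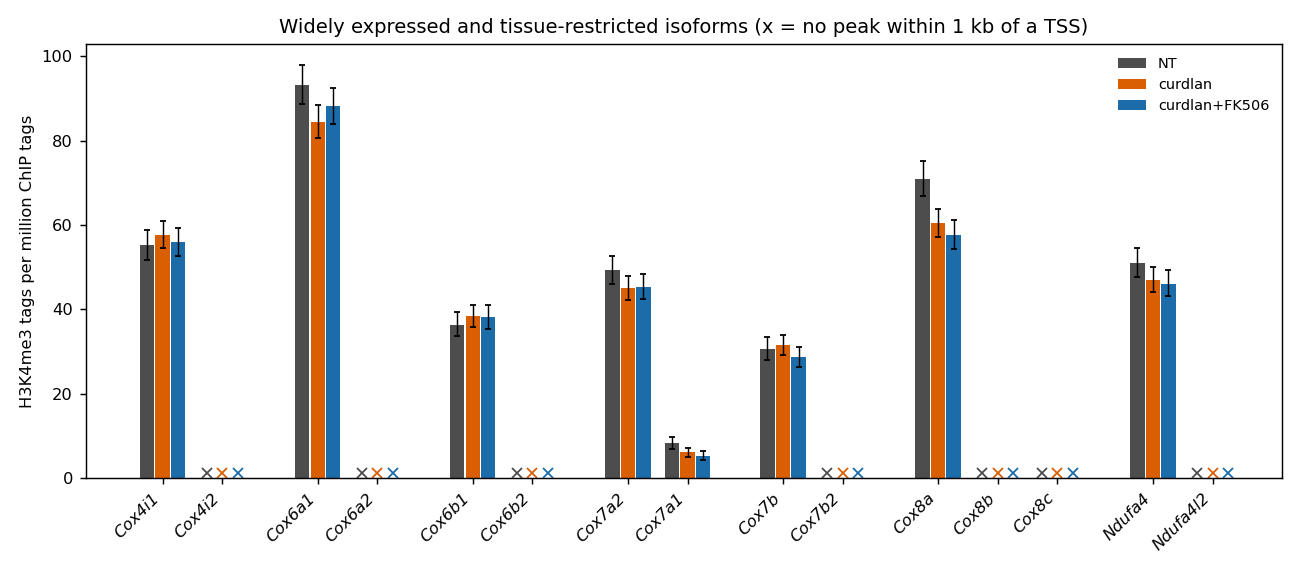
H3K4me3 level in RPM (vertical axis) at the widely expressed and tissue-restricted isoforms of 7 subunits in the NT, curdlan and curdlan+FK506 libraries (1 library each); error bars are exact 95% Poisson intervals of the count and crosses mark no peak within 1 kb. Cox7a1 is the restricted isoform with a peak, at 8.16, 6.01 and 5.19 RPM.

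Levels in RPM were divided by the peak length in kb (RPM per kb) where genes are compared. The median level over the 84 entries was 47.4 RPM in NT, 45.1 in curdlan and 44.5 in curdlan+FK506, beside 46.2, 42.7 and 41.4 for all protein-coding genes with a peak. Per kb of peak, the medians were 17.0, 14.6 and 15.1 RPM per kb for the members and 14.6, 12.9 and 12.8 for all genes. The members' peaks had a median length of 2903 bp in NT, 2995 bp in curdlan and 2904 bp in curdlan+FK506, against 3095, 3266 and 3173 bp for all genes. Member levels in NT ran from 8.16 to 118 RPM, while those of all genes ran from 1.14 to 584.

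Group medians in NT, in RPM per kb of peak, were 16.9 for complex I, 17.0 for its assembly factors, 16.2 for complex II, 19.2 for complex III, 15.8 for complex IV and 17.7 for the ATP synthase. The range within complex IV (5.39 to 26.8) or complex I (10.4 to 24.4) was wider than the range of these medians. By total tags, entries near the top in NT were Ndufaf3, an assembly factor of complex I, at 118 RPM, Uqcrh, the hinge subunit of complex III, at 100.5, and Ndufa13 and Cox6a1 at 93.4 and 93.3. The peaks of the first 3 also reached other genes (Dalrd3, Lrrc41 and Tssk6 in that order). The lowest were Cox7a1 (8.16), Sdhc (23.2), Sdhb (23.9), Atp5sl (25.6) and Ndufa10 (26.3 RPM). Per kb of peak in NT, Cox6a1 (26.8) and Atp5j2 (25.6) stood highest, and Cox7a1 (5.39), Atp5d (7.81) and Sdhb (10.0 RPM per kb) lowest.

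**Figure D2:**
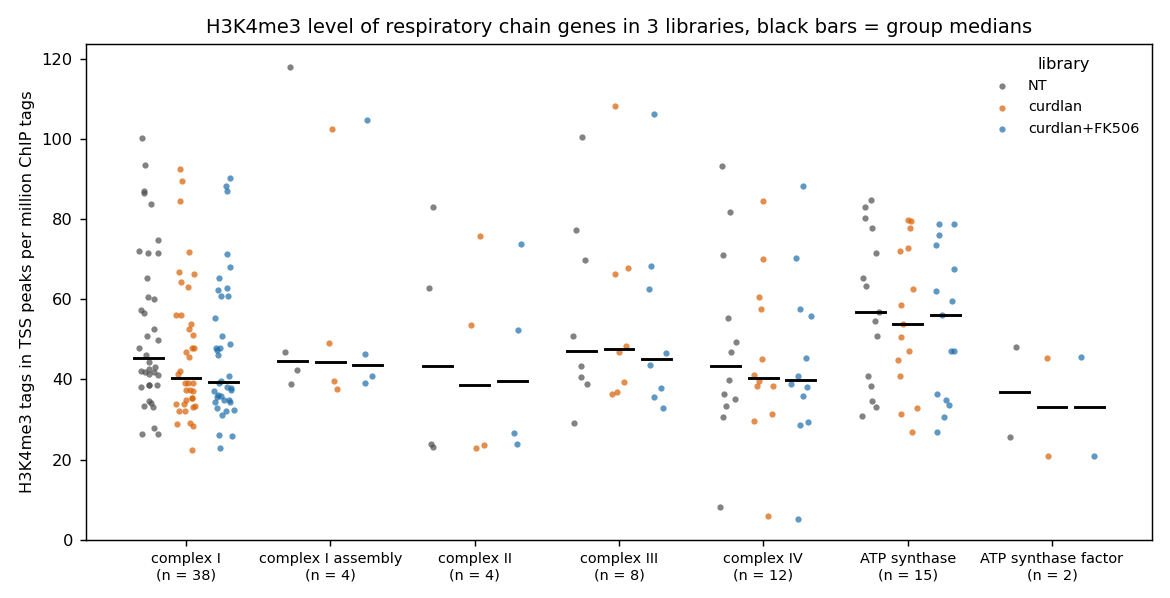
H3K4me3 level of the TSS peaks in RPM (vertical axis) for each respiratory chain entry with a peak, by complex and library; each point is 1 gene entry and black bars are group medians. The groups overlap in every library, and the ATP synthase median is 56.9 in NT, 53.8 in curdlan and 56.1 in curdlan+FK506.

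The 4 genes of complex II ran from 23.2 to 83.1 RPM in NT. Sdhd, a membrane anchor that shares its peak with Timm8b, had 1384 tags in NT, 1614 in curdlan and 1437 in curdlan+FK506. Sdha, the flavoprotein subunit, had 1045, 1141 and 1019 tags. Sdhb, the iron-sulphur subunit, had 398, 486 and 464 tags, and Sdhc, the other anchor, had 386, 502 and 520 tags. Sdha and Sdhd lay above Sdhb and Sdhc in each library, also per kb of peak, where the NT levels were 20.3, 21.9, 10.0 and 12.1 RPM per kb for Sdha, Sdhd, Sdhb and Sdhc.

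In most entries the mark peaked just inside the gene. The summit of the highest peak lay a median of 286 bp downstream of the main TSS in NT, 276 bp in curdlan and 260 bp in curdlan+FK506, and it was downstream in 65, 67 and 67 of the 84 entries. The peaks reached a median of 1121 bp upstream and 1597 bp downstream in NT, and they covered the main TSS in 83 of the 84 entries in each list. The shortest NT peaks were those of Cox7a1 (1515 bp), Ndufc1 (1748 bp), Atp5sl (1846 bp), Ndufb7 (1866 bp) and Sdhc (1912 bp). Among the longest totals were those of Ndufb10 (5929 bp), Cox5a (5507 bp), Uqcrh (5429 bp) and Ndufaf3 (5275 bp). Ndufb10 had 2 NT peaks, and the higher one lay at its neighbour Rps2, 4762 bp from the main TSS of Ndufb10. In Cox5a a single peak ran 4474 bp into the gene.

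**Figure D3:**
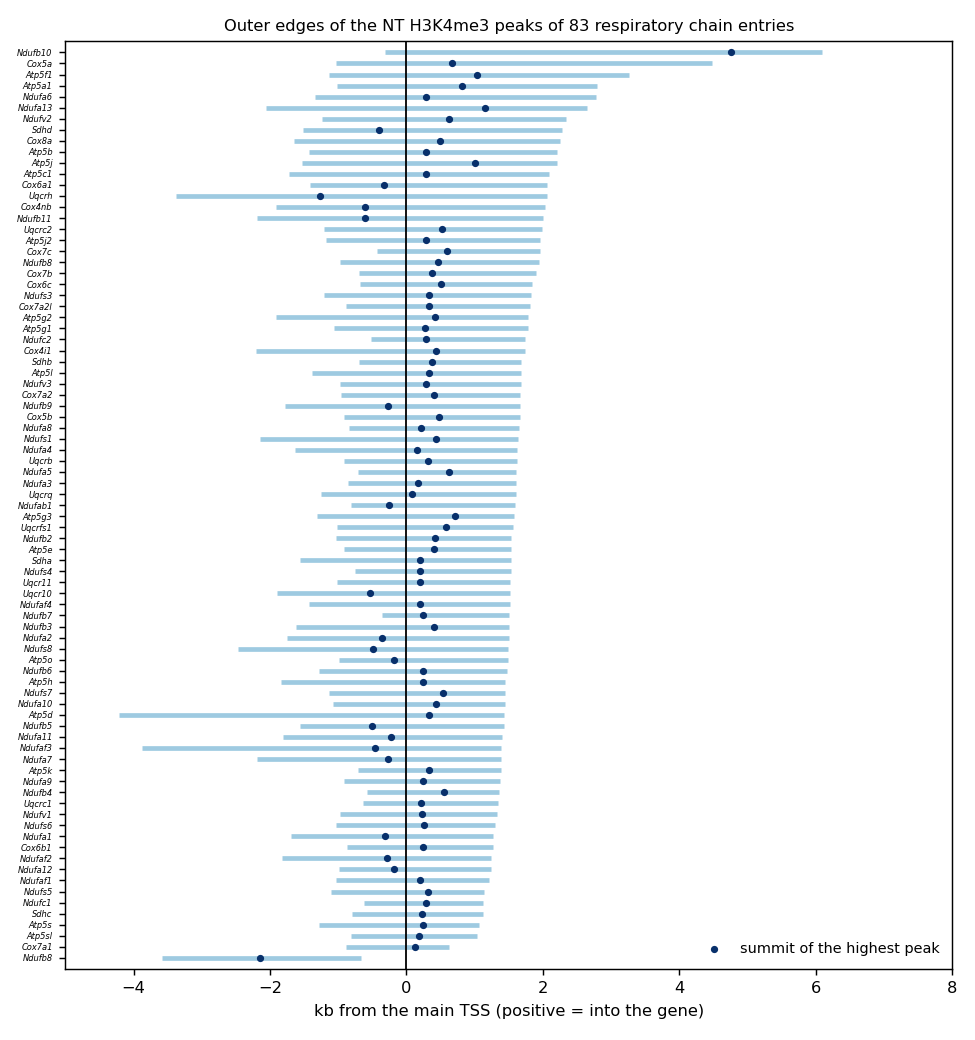
Outer edges of the NT H3K4me3 peaks (bars) and the summit of the highest peak (dots) for 83 respiratory chain entries, in kb from the main TSS, sorted by the downstream edge; gaps between separate peaks of 1 gene are not drawn, and an entry whose peaks end beyond the axis is left out. Most bars extend farther downstream than upstream (60 of 83), and the entry whose bar does not reach the TSS is the second Ndufb8 identifier.

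In curdlan, H3K4me3 at every respiratory chain entry with a peak stayed within 1.5-fold of its NT level, relative to all genes. Changes are log2 ratios of RPM, from which the median over every protein-coding gene that both lists cover was subtracted. Before centring, this median stood at −0.13. The members' median change was 0.01 (n = 84), with an SD over genes of 0.16, against 0.32 over all 10815 genes. None of the 84 entries was at least 1.5-fold higher or lower, where 3.63% of all genes were at least 1.5-fold higher and 1.23% at least 1.5-fold lower. By the counting interval alone, 17 entries lay above the all-gene median and 10 below, beside backgrounds of 25.4% and 24.3%. Spread between cultures was not measured, as every condition is a single library, so no p-value was computed, and a change in the share of cells carrying the mark cannot be told apart from a change within each cell.

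The highest change was at Uqcrfs1, the Rieske iron-sulphur protein of complex III, with 29.2 RPM in NT, 36.9 in curdlan and 32.9 in curdlan+FK506. Curdlan over NT was 0.46 (exact 95% counting interval 0.30 to 0.63). Uqcrq, the ubiquinone-binding subunit of the same complex, had 38.8, 48.3 and 46.5 RPM, a change of 0.44 in curdlan (0.30 to 0.59), in a peak shared with Gdf9. These were the members farthest above the all-gene median, and in both NT was the lowest of the 3 libraries. The next were Cox6c, a complex IV subunit, at 0.31 (0.15 to 0.46), Ndufa7 at 0.28 (0.16 to 0.40), whose peak also covers Rps28 and Kank3, and Atp5d, the delta subunit of the ATP synthase, at 0.27 (0.12 to 0.41).

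The lowest change was at Ndufa13, a complex I subunit also known as GRIM-19, which had 93.4 RPM in NT, 63.0 in curdlan and 62.9 in curdlan+FK506. Curdlan over NT was −0.44 (−0.55 to −0.34), in a peak that also reaches Tssk6, and both curdlan libraries lay below NT by about the same amount. Cox7a1 was at −0.31, with an interval from −0.67 to 0.04 that includes 0. Ndufa6, a complex I subunit, had 72.1, 53.8 and 55.3 RPM and a change of −0.29 (−0.41 to −0.18). The 2 Ndufb8 entries, which count the same tags, came next at −0.22 (−0.34 to −0.11).

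By complex, curdlan over NT had a median of −0.02 in complex I, 0.06 in its assembly factors, 0.03 in complex II, 0.03 in complex III, −0.01 in complex IV and 0.05 in the ATP synthase. Of the ATP synthase subunits, 13 of 15 were above the all-gene median, against 15 of 38 complex I entries and 5406 of 10815 over all genes. The 38 hold both Ndufb8 entries, which share 1 peak. Among the ATP synthase subunits the counting interval excluded 0 at Atp5d, Atp5f1, Atp5j and Atp5o only. These tags are summed over peaks whose length differs between libraries. The Atp5o peak was 2477 bp long in NT and 3873 bp in curdlan, and its level per kb went from 15.5 to 10.5 RPM per kb. Atp5j also went down per kb, from 20.2 to 16.5, while Atp5d (7.81 to 7.92) and Atp5f1 (17.7 to 18.4) did not. The all-gene median went from 14.6 to 12.9. The values within the ATP synthase ran from −0.07 to 0.27, and those within complex I from −0.44 to 0.28.

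**Figure D4:**
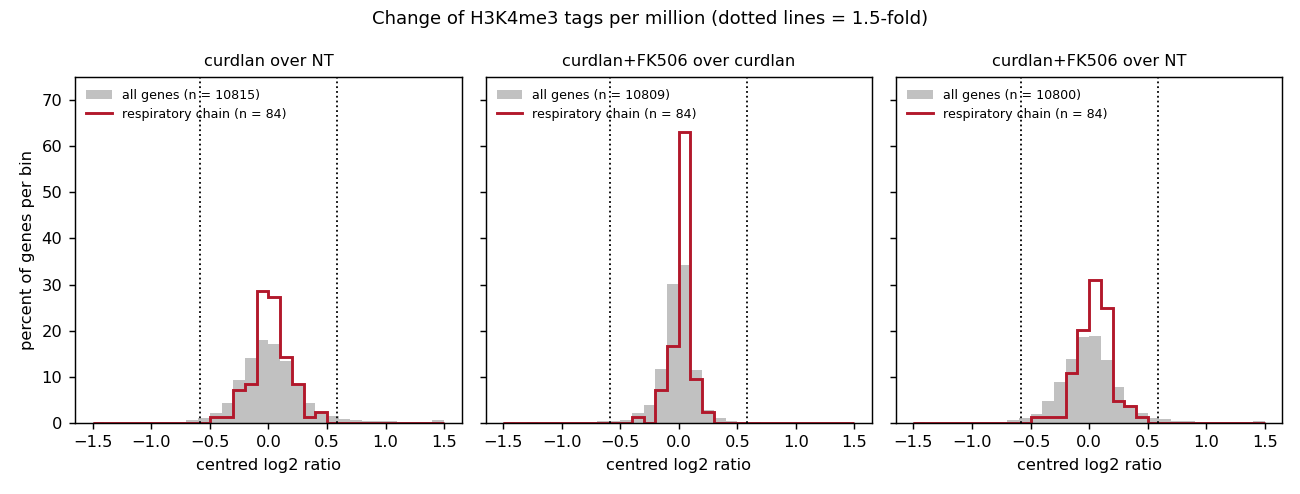
Distribution of the centred log2 ratio of H3K4me3 RPM (horizontal axis) in the 3 comparisons, as percent of genes per bin, for 84 respiratory chain entries (red line) and for all protein-coding genes with a peak in both lists (grey); values beyond the axis are put in the end bins and dotted lines mark 1.5-fold. No respiratory chain entry lies beyond the dotted lines, and the range is −0.44 to 0.46 in curdlan over NT.

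With FK506 added to curdlan, every member with a peak stayed within 1.5-fold of its level in curdlan alone, relative to all genes. The 3 comparisons share libraries and are not independent of each other. The all-gene median of curdlan+FK506 over curdlan was −0.05 before centring, and the members' median relative to it was 0.03, with an SD over genes of 0.08 against 0.19 for all 10809 genes. The median counting SE of a member's change was 0.07, close to this SD. No entry was at least 1.5-fold higher or lower, where 0.389% of all genes were higher and 1.14% lower. With shares this small, a count of 0 among 84 entries says little about the members. The counting interval lay above the all-gene median for 5 entries and below it for 1, with backgrounds of 10.1% and 11.1%. Above 0 were 63 of 84 values, beside 5403 of 10809 over all genes, a share that the centring sets. Without centring the members' median was −0.013. Atp5d was the entry whose counting interval lay below the all-gene median. It had 40.8, 44.9 and 35.0 RPM in NT, curdlan and curdlan+FK506, a change of −0.31 with FK506 (−0.46 to −0.17). Its tags come from 3 peaks in NT and 2 in each other list, and the NT peaks also reach the neighbour Dos. The highest were Ndufc2, a complex I subunit, at 0.23 (0.08 to 0.39), with 38.6, 33.2 and 37.8 RPM, and Sdhc at 0.23 (0.05 to 0.40), with 23.2, 23.6 and 26.7. Ndufb8 followed at 0.16 for both entries and Ndufc1 at 0.14. The other low values were Cox7a1 (−0.17), Uqcrfs1 (−0.12), Ndufb3 (−0.12) and Atp5o (−0.12), and the counting intervals of these 4 included 0.

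Against NT, members with a peak also stayed within 1.5-fold in the curdlan+FK506 library, relative to all genes (without centring, 1 entry was lower by more). The all-gene median was −0.18 before centring, and the members' median relative to it was 0.06, with an SD over genes of 0.15 against 0.29 for all 10800 genes. No entry was at least 1.5-fold higher or lower, where 2.87% of all genes were higher and 1.23% lower. The counting interval was above the all-gene median for 17 entries and below it for 6, with backgrounds of 23.7% and 22.8%. The highest were Uqcrq (0.44), Sdhc (0.38), Ndufa7 (0.36), Uqcrfs1 (0.35) and Uqcrh (0.26). The lowest were Cox7a1 (−0.48, interval −0.86 to −0.10), Ndufa13 (−0.40), Ndufa6 (−0.21), Ndufb11 (−0.18) and Ndufs8 (−0.18).

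These counts of 0 depend on the tag measure. With the fold enrichment that MACS gives at the summit in place of the tags, 18 entries were at least 1.5-fold higher and 17 at least 1.5-fold lower in curdlan over NT, where 14.0% and 14.3% of all genes were. Counting the highest peak of each gene alone put Atp5h and Atp5j past 1.5-fold upward in that comparison, where 5.30% of all genes were higher and 1.67% lower. Both had 2 peaks in NT and 1 in curdlan. By the fold enrichment the members' medians were −0.11, −0.036 and −0.030 in the 3 comparisons, on the other side of 0 from those by tags.

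The other genes of the pathway, taken from lists of carriers, assembly factors, regulators and enzymes, were read in the same way. Of 20 assembly and insertion factors, all had a peak in each list. Cox17, the copper chaperone of complex IV, was the 1 of these 20 past 1.5-fold in curdlan over NT, where 3.63% of all genes were higher. It had 49.2 RPM in NT, 68.7 in curdlan and 63.5 in curdlan+FK506, a change of 0.61 (0.49 to 0.74). Cytochrome c (Cycs) and cytochrome c1 (Cyc1) had peaks, and the testis form Cyct had none. Of 11 regulators, 10 had a peak, Ppargc1b being the one without. All 13 TCA cycle genes and all 17 glycolysis genes had a peak, and none of them or of the regulators was past 1.5-fold in any of the 3 comparisons. Over all genes at most 3.63% were higher and 1.23% lower in any of these comparisons. Median changes in curdlan over NT were −0.01 for the assembly list, 0.01 for the regulators, −0.00 for the TCA cycle and −0.02 for glycolysis.

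NFATc2 summits stood within 20 kb of a TSS at 22 of the 92 entries (23.9%, exact 95% interval 15.6% to 33.9%), beside 24.1% of all protein-coding genes. Of the 84 entries with an NT peak it was 20 (23.8%, interval 15.2% to 34.4%), beside 37.1% of all genes with an NT peak. Over all 92 entries it was 5 within 1 kb (5.43%, against 5.29% of all genes), 8 within 5 kb (8.70%, against 11.4%), 10 within 10 kb (10.9%, against 16.3%) and 43 within 50 kb (46.7%, against 39.9%). Over the entries with an NT peak, the shares were 5.95% within 1 kb, 8.33% within 5 kb, 10.7% within 10 kb and 45.2% within 50 kb, against 9.91%, 19.8%, 26.8% and 56.9% of all genes with one. By complex, the 22 were 13 of 39 complex I entries, 6 of 18 of complex IV and 3 of 15 of the ATP synthase. Complex II had 0 of 4 and complex III 0 of 8. The nearest summit of a member lay a median of 62.9 kb away, against 79.6 kb for all genes. For entries with an NT peak it was 64.6 kb, against 37.9 kb for all genes with one. The last member inside the limit was Cox5b at 19850 bp and the first outside it Atp5e at 21474 bp.

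**Figure D5:**
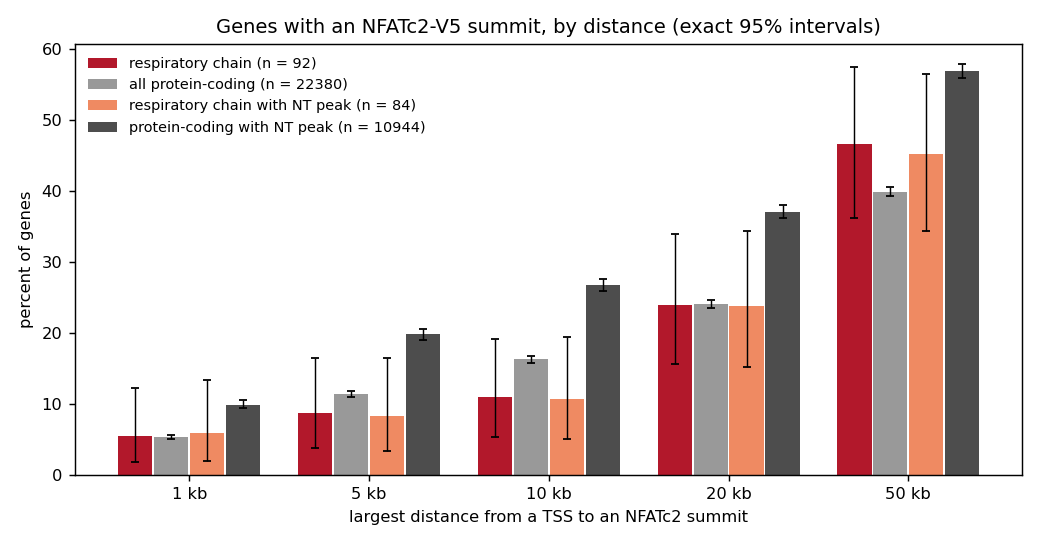
Percent of genes with an NFATc2-V5 summit within 1, 5, 10, 20 and 50 kb of a TSS, for respiratory chain entries and for all protein-coding genes, with and without the condition of an NT H3K4me3 peak; error bars are exact 95% binomial intervals. At 20 kb the respiratory chain entries with an NT peak stand at 23.8% and all genes with an NT peak at 37.1%.

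The 5 members with a summit within 1 kb were Cox7a1, Ndufa5, Cox5a, Ndufv2 and Ndufs4. The Cox7a1 summit lay 136 bp upstream of the TSS, with 46 NFATc2 tags and a fold enrichment of 10.9. The Ndufa5 summit lay 184 bp downstream, in an exon, with 24 tags and a fold enrichment of 8.68. Those of Cox5a (29 tags), Ndufv2 (32 tags) and Ndufs4 (25 tags) lay 303, 320 and 806 bp upstream. Cox5a and Ndufa5 encode subunits of complexes IV and I, Ndufv2 the iron-sulphur subunit beside the NADH site of complex I, and Ndufs4 an accessory subunit of the same arm. The first 4 of these summits lay inside an H3K4me3 peak of all 3 libraries, and that of Ndufs4 in 1. Each of the 5 held fewer tags than the median NFATc2 peak, which had 63.

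The sequence under the 3 nearest summits is shown because these sites lie closest to the start of a member. GGAAAA on either strand is in capitals, and bases are mm9 on the strand of the gene. The Cox7a1 stretch, chr7:30969004-30969104 on the plus strand, and the Cox5a stretch, chr9:57368686-57368786 on the plus strand, are centred on the summit. The Ndufa5 stretch, chr6:24477797-24477826 on the minus strand, is 30 bases around the one match, whose centre lies 17.5 bp from the summit.
Cox7a1: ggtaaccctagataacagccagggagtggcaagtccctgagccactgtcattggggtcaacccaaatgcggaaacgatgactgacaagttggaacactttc
Ndufa5: tacgttgcaagtTTTTCCgtagcgtagcgc
Cox5a: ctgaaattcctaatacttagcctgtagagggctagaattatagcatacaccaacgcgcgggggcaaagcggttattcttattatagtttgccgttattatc

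The Cox7a1 and Cox5a stretches hold no GGAAAA, and neither did the 100 bases on each side of these summits. Of the nearest summits of the 22 members, 8 had GGAAAA within 100 bp (36.4%), beside 45.6% of all 9438 NFATc2 summits. No match says only that these letters are absent from the window.

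Beyond 1 kb the sites were often nearer to another gene. In all, 26 distinct summits lay within 20 kb of a member, and for 13 of them a member was the nearest protein-coding gene. The tags of these 26 peaks ran from 20 to 301 with a median of 45. The highest was the summit nearest to Atp5j, with 301 tags and a fold enrichment of 38.5. It lay 15298 bp from the nearest Atp5j TSS in an intron of Jam2, an adhesion molecule gene, whose TSS was 4108 bp away. Ndufab1, the mitochondrial acyl carrier protein, had a summit with 102 tags 4474 bp from its nearest TSS and inside one of its own exons. Cox6a2, one of the isoforms without H3K4me3, had a summit with 27 tags 1933 bp upstream, and Cox8c, another, one with 20 tags at 10167 bp. Ndufa13, the member with the lowest change in curdlan, had a summit with 86 tags 16187 bp upstream in an intron of Gatad2a.

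Members near an NFATc2 summit and members far from one are set side by side without a test. The 20 entries within 20 kb that had an H3K4me3 peak had a median change of −0.02 in curdlan over NT, 0.02 in curdlan+FK506 over curdlan and −0.00 in curdlan+FK506 over NT. The 64 entries farther away had medians of 0.03, 0.04 and 0.09. The ranges overlapped in each comparison, from −0.44 to 0.16 for the near and from −0.22 to 0.46 for the far entries in curdlan over NT.

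Several members are neighbours on the chromosome. Ndufs8 lies near Ndufv1 on chromosome 19. On chromosome 10, Atp5d is 107 kb from Ndufs7, which is 158 kb from Uqcr11. In curdlan over NT these 3 were at 0.27, −0.03 and −0.02. Ndufs8 was at −0.21 and Ndufv1 at −0.06.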

How the data were processed

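ChIP-seq reads were mapped by the authors to mm9 with bowtie 1, and peaks were called in each library against its input with MACS (1.4.2 in the file headers), at a p-value limit of 1e-05 and a band width of 300 bp (NFATc2) or 1000 bp (H3K4me3). Each list is from 1 ChIP library. The deposited lists give raw tag counts per peak, a fold enrichment over input (a ratio), the p-value of each peak as a score (a multiple of its −log10), and the FDR in percent. Genes below that limit are not listed, so their level is unknown. Libraries differed in depth and in the share of tags in peaks; centring sets the all-gene median to 0, and whether it corrects weak and strong peaks alike was not tested.

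Genes were those of GENCODE vM1 (NCBIM37, the mm9 assembly). A gene's tags were summed over peaks whose interval came within 1 kb of any TSS, per 1000000 header ChIP tags (RPM). Ratios were centred on all protein-coding genes, called at 1.5-fold, and given with exact conditional binomial 95% intervals. Levels have exact Poisson and shares exact Clopper-Pearson intervals. All cover counting error only, since they are computed from tag or gene counts and each condition has 1 library. Duplicates were limited to 1 tag per position, and molecules were not marked. The ratio and overlap steps were tested on simulated data with planted changes. Promoter sequences were read from the mm9 genome. Python 3.11.15, pandas 2.3.3, scipy 1.17.1 and pysam 0.24.0 were used.

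Members, gene lists, motifs and tests were chosen with earlier results of these data known. Named genes are complex II, the isoform pairs, the extremes of level, length and change (5 each), members without a peak and those nearest to NFATc2 summits. Cox17, Timm8b, Mrpl47 and other neighbours were named after their values were seen. Alternatives covered the peak window, thresholds, tag measure, centring and fold limit. Values of 1 member are not reported here by name.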

Additional observations from a re-analysis of the deposited data

How the results depend on the processing

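The number of entries with an H3K4me3 peak stayed between 81 and 85 in each list under every alternative window, summit rule or threshold. It was 78 in each list where the assembly factors, Atp5s and Atp5sl were left out of the set, which is then smaller. The NT medians moved to 46.8 RPM and 2856 bp at most. The median changes are small, and their side of 0 depends on the setting. In curdlan over NT the median was −0.12 without centring, −0.11 by MACS fold enrichment and −0.017 without shared peaks. In curdlan+FK506 over curdlan it was −0.013 without centring and −0.036 by fold enrichment, and in curdlan+FK506 over NT −0.030 by fold enrichment. The limits are 1 library per condition and the threshold of the lists. Without centring, the median in curdlan+FK506 over NT was −0.12 and 1 entry was at least 1.5-fold lower. The tag total after the duplicate filter equalled the total before it in each list, so using it could not change the uncentred values. Counts past 1.5-fold, 0 in the main measure, were as follows for higher and lower in turn. By MACS fold enrichment they were 18 and 17 in curdlan over NT (14.0% and 14.3% of all genes), 7 and 13 in curdlan+FK506 over curdlan (13.7% and 14.2%), and 6 and 15 in curdlan+FK506 over NT (13.5% and 13.7%). By the highest peak, 2 (Atp5h, Atp5j) were higher in curdlan over NT (5.30% of all genes) and 1 (Atp5h) in curdlan+FK506 over NT (3.82%), and by RPM per kb 1 (Atp5o) was lower in the last (0.750%). At the lower fold limit tried, 2 (Uqcrfs1, Uqcrq) were higher and 1 (Ndufa13) lower in curdlan over NT (10.1% and 7.40% of all genes), and 4 and 2 in curdlan+FK506 over NT (8.61% and 7.47%). Members with an NFATc2 summit, 22 within 20 kb, numbered 5 within 1 kb, 8 within 5 kb, 10 within 10 kb and 43 within 50 kb. They numbered 11 where the member had to be the nearest gene of the summit (11.96%, against 17.0% of all genes and 27.1% of those with an NT peak). At a MACS p-value of 1e-10 or less 4 remained (4.35%, against 13.4% of all genes and 21.2% of those with an NT peak). The cause of the shifts with the fold enrichment was not tested. No paired analysis was possible because each condition has 1 library, and no library could be left out.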
